A study of Capra hircus with 2 samples.

Results

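Inner root sheath cells were selected in skin of Liaoning cashmere goats (Capra hircus) by the summed UMIs (unique molecular identifiers, each standing for 1 captured transcript) of TCHH, KRT25 and KRT27. A cell was chosen where these 3 genes together held at least 30 of every 10000 of its UMIs, with at least 5 such UMIs, and where they outnumbered those of KRT35, a cortex keratin. Cells with 3 or more UMIs of TOP2A, CENPF, UBE2C and BIRC5 (genes of dividing cells) or of PECAM1, PLVAP and VWF (genes of endothelial cells) were left out. The rule took 949 of the 13051 kept cells. The study profiled scapular skin in anagen, the growth phase of the hair cycle, from 1 healthy goat with coarse cashmere (CT-LCG) and 1 with fine cashmere (FT-LCG), by droplet capture and 3′ sequencing. The CT-LCG library held 3443 kept cells with 27890472 UMIs (median 2314 per cell) and the FT-LCG library 9608 kept cells with 85400323 UMIs (median 6122). Because each type was a single goat and a single library, goat, library and cashmere type cannot be told apart. No difference below has a replicate check, none was tested, and the 95% intervals cover counting error only.

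The inner root sheath is the rigid sleeve that moulds the growing hair and then breaks down before the hair leaves the skin. Its layers (the Henle layer, the Huxley layer and the sheath cuticle) build filaments from their own keratins, among them KRT25, KRT27, KRT26 and KRT74. They embed these in trichohyalin (TCHH), which peptidylarginine deiminases convert and transglutaminases crosslink. GATA3 and CUX1 are transcription factors known from the inner root sheath of the mouse. KRT28, KRT71, KRT72 and KRT73, the other keratins of this sheath, were not found under these symbols and were not analysed by name. Whether genes without a symbol stand for any of them was not tested.

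The 949 members were split at 2000 UMIs per cell, and those under it are called shallow. In CT-LCG, 649 of 684 members had fewer than 2000 UMIs and 35 had more. In FT-LCG, 229 of 265 had fewer and 36 had more. Members made up 19.9% (exact binomial 95% interval 18.5 to 21.2) of kept CT-LCG cells and 2.76% (2.44 to 3.11) of FT-LCG cells. Of kept cells with at least 2000 UMIs, they were 1.9% (1.33 to 2.64) in CT-LCG and 0.553% (0.387 to 0.765) in FT-LCG. Below 2000 UMIs the shares were 40.5% (38 to 42.9) and 7.4% (6.5 to 8.38). Most members thus lay among the shallow cells, in CT-LCG more than in FT-LCG. Under 2000, the median member had 1089 UMIs and 580 genes in CT-LCG against 1214 UMIs and 716 genes in FT-LCG. Over 2000, the median was 2415 UMIs and 1232 genes in CT-LCG against 17307 UMIs and 3142 genes in FT-LCG. Members over 2000 thus differed in depth between the libraries, and 5 CT-LCG against 25 FT-LCG members reached 10000 UMIs. No doublet caller was run. The libraries shared 11 barcode sequences among kept cells, and 0 of these were members.

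**Figure D1:**
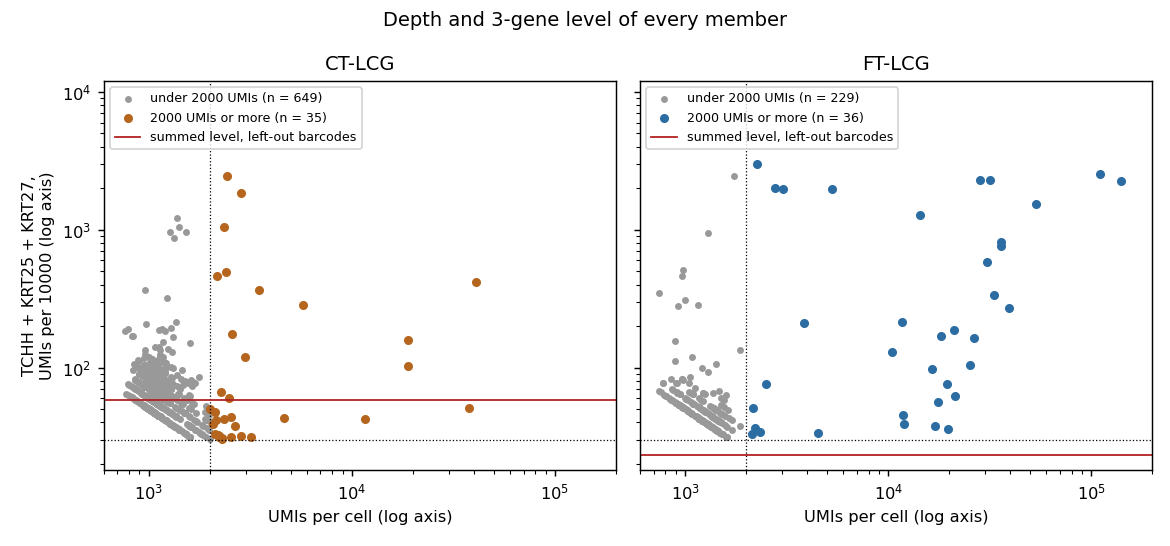
Total UMIs (x, log axis) against UMIs of TCHH, KRT25 and KRT27 per 10000 (y, log axis) for each member of CT-LCG (n = 684) and FT-LCG (n = 265), with grey points under 2000 UMIs and a red line at the summed level of the barcodes that were left out, 58.4 in CT-LCG against 23.3 in FT-LCG. Cells above 100 per 10000 lie mostly to the right of 2000 UMIs in FT-LCG, and the grey cloud of CT-LCG lies around the red line.

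The label was checked first on barcodes that the authors left out, 2659 in CT-LCG against 1589 in FT-LCG, all with at most 500 detected genes. The 3 genes stood at a summed 58.4 per 10000 in the left-out barcodes of CT-LCG, against 75.2 in its shallow members. In FT-LCG the same values were 23.3 and 75.6. In CT-LCG the limit of 30 in the rule thus lay below the level of the barcodes left out, and 33.7% (31.9 to 35.6) of them met the rule. In FT-LCG 2.01% (1.38 to 2.83) did. Endothelial cells, which should lack these genes, had a median 3-gene level of 8.01 in CT-LCG (n = 44) and 1.32 in FT-LCG (n = 143). Their summed levels were 6.2 and 142, and 14146 of the 14281 UMIs behind the latter were in 3 cells that the rule removed for their endothelial UMIs.

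Other genes of the shallow members lay near the left-out barcodes too. Across 5231 genes, the profile of the 649 shallow CT-LCG members correlated with that of the left-out barcodes at r = 0.99. It correlated at r = 0.816 over 2143 genes with the CT-LCG members that had at least 2000 UMIs and 100 per 10000 of the 3 genes. In FT-LCG the same values were r = 0.974 (3489 genes) and r = 0.778 (2101 genes). With the other kept cells under 2000 UMIs, shallow members correlated at r = 0.984 in CT-LCG (4631 genes) and r = 0.979 for FT-LCG (7644 genes), so the likeness was not to the left-out barcodes alone. These correlations are descriptions across genes, which are not independent, and each pair comes from 1 library. At a 2-fold ratio, 39 of 5231 genes (0.746%) were higher and 33 (0.631%) lower in the shallow CT-LCG members than in the left-out barcodes. In FT-LCG 32 of 3489 (0.917%) were higher and 82 (2.35%) lower.

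KRT10, a keratin of the epidermis above its basal layer, shows the likeness. Its summed level was 168 per 10000 in shallow CT-LCG members and 179 in left-out barcodes, and 135 against 136 in FT-LCG. KRT14, a keratin of basal epidermis and outer root sheath, stood at 44.6 against 53.5 in CT-LCG and 121 against 110 in FT-LCG. KRT74, an inner root sheath keratin the rule did not use, stood at 0.308 against 0.298 in CT-LCG and at 0.144 against 0.0903 in FT-LCG. In CT-LCG none of the 3 inner root sheath keratins tested, and none of 9 envelope genes or 14 transcription factors, passed 2-fold. That is near the shares over all genes (0.746% higher and 0.631% lower), so it is not read as a result about these lists. In FT-LCG both inner root sheath keratins tested, KRT25 and KRT27, were higher in the members, but the rule had chosen on them. There, 2 of 8 tested envelope genes were higher, among them TCHH, on which the rule also chose, and 1 was lower. Of 7 hair shaft genes 4 were lower, in a list that holds KRT35, which the rule limited in members. Over all genes more were lower past 2-fold in FT-LCG (2.35%) than in CT-LCG (0.631%), and in that the likeness was less close. By their profile over all genes and their levels of KRT10 and KRT14, the shallow members go against the label as a group. They are called shallow barcodes below, by the rule that took them.

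**Figure D2:**
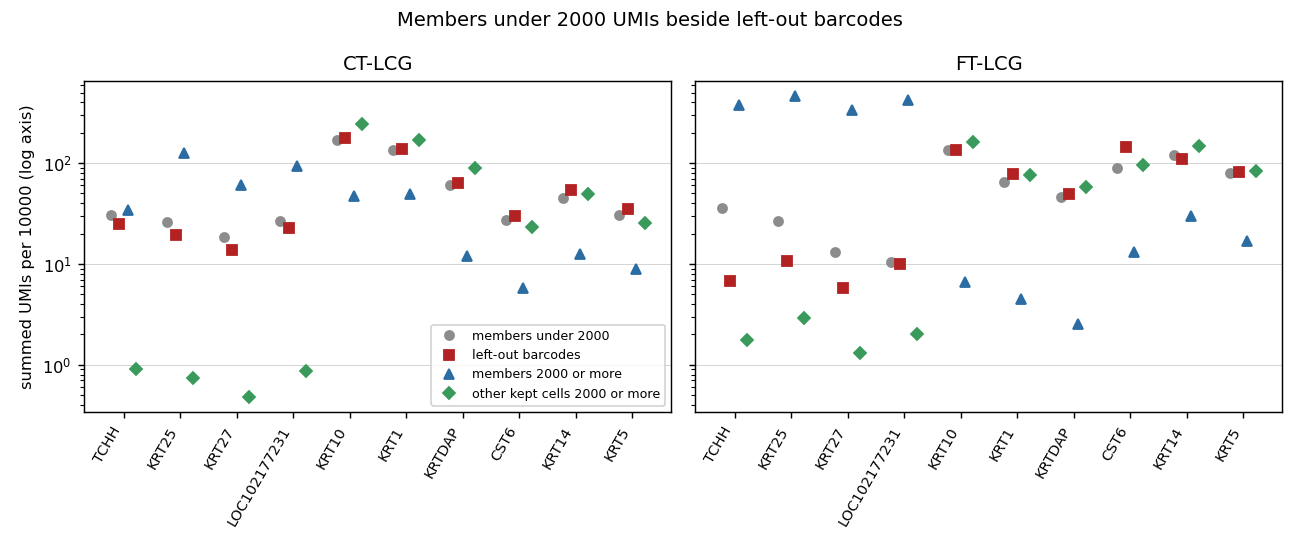
Summed UMIs per 10000 (y, log axis) of single genes (x) in each library, for shallow members (circles), left-out barcodes (squares), members with at least 2000 UMIs (triangles) and other kept cells with at least 2000 UMIs (diamonds). Markers of shallow members and left-out barcodes nearly coincide for KRT10 (168 and 179 in CT-LCG), and in FT-LCG they part for TCHH (35.8 and 6.79).

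A small number of the shallow barcodes had high levels. At 200 per 10000 or more there were 9 in CT-LCG, with 3-gene levels from 206 to 1216 (median 875), and 8 in FT-LCG, from 281 to 2450 (median 406). The other 640 in CT-LCG had a summed 65.1 per 10000 and the other 221 in FT-LCG 49.9. This division was made after seeing the data.

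The 71 members with at least 2000 UMIs are called deep members below. Of these, 34 stood at 100 per 10000 or more, 12 in CT-LCG against 22 in FT-LCG. The other 23 deep CT-LCG members had a summed 43.7 per 10000, below the 58.4 of the barcodes left out, so as a set their 3-gene level did not lie above it, and the label could not be checked on that level. They were not alike. One of them, named after its values were seen, had 37572 UMIs with 158 of KRT25, 43 of GATA3, 38 of PRR9 and 27 of LOC102168573, against 20 of KRT10, while the median KRT10 level of the 23 was 111 per 10000. The other 14 deep FT-LCG members had 55.8 against 23.3. Across genes, all deep members summed correlated with the left-out barcodes at r = 0.909 in CT-LCG (4501 genes) and r = 0.837 for FT-LCG (4129 genes), and those at 100 or more at r = 0.84 and r = 0.804. As sets, the deep members of CT-LCG thus lay nearer to the left-out barcodes than those of FT-LCG. Deep members held 15.4% of all UMIs of the 3 genes in the CT-LCG library and 63.1% in the FT-LCG library. Per cell, their 3-gene level was lowest at 30.4, 43.5 at the median and 2439 at the highest in CT-LCG. In FT-LCG it was 32.8, 178 and 2980. The other kept cells with at least 2000 UMIs had medians of 2.33 and 0.878. All of these values were used by the rule.

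Next to the limit, the 3 lowest deep members of CT-LCG stood at 30.4, 30.6 and 31.1 and the 3 nearest cells outside at 29.4, 29 and 28.8. In FT-LCG the cells inside stood at 32.8, 33.3 and 34.2 and those outside at 29.8, 28.7 and 27.3. In CT-LCG 13 deep members lay between 30 and 40, and 37 deep cells lay between 20 and 30, so the limit cut through a continuous range there. In FT-LCG these counts were 7 and 16. The limits on other genes removed 2 deep cells in CT-LCG. In FT-LCG they removed 21 of 57, of which 18 held dividing-cell UMIs and 3 endothelial UMIs. The 18 with dividing-cell UMIs had a summed 3-gene level of 322 per 10000 and the 3 with endothelial UMIs 2257. Cells with high levels of the 3 genes that also carried those UMIs are thus not among the members. These limits are counts that are not scaled to depth, so cells with more UMIs reach them more easily. Whether the removed cells were dividing or endothelial was not tested.

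KRT25 (gene 100861172), a type I keratin of all layers of the sheath, was found in 33 of 35 deep CT-LCG members and in all 36 of FT-LCG. Its level per cell ran from 0 through a median of 14.2 to 1362 per 10000 in CT-LCG. In FT-LCG it ran from 6.66 through 117 to 1433. The ranges overlapped and the FT-LCG median was the higher. KRT27 (gene 100861382), a type I keratin of the same layers, ran from 0 through 8.87 to 1039 in CT-LCG and from 0 through 14.8 to 1054 in FT-LCG. TCHH (gene 102188454) ran from 0.532 through 18.8 to 485 in CT-LCG and from 0 through 19.8 to 2759 in FT-LCG. For TCHH the medians of the libraries were near each other, and its upper end was higher in FT-LCG. For KRT27 the FT-LCG median was the higher.

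The 3 genes were not in fixed proportion. UMIs of KRT25 outnumbered those of the other 2 in 25 deep FT-LCG members and UMIs of TCHH in 9. In CT-LCG these counts were 14 and 13. The FT-LCG member with the highest 3-gene level had 625 UMIs of TCHH against 13 of KRT25 and 37 of KRT27, out of 2265 in all. In CT-LCG the member with the highest level had 9 UMIs of TCHH against 329 of KRT25 and 251 of KRT27, out of 2415. Near the top of the range there were thus cells led by trichohyalin and cells led by the keratins. TCHH was not detected in 7 deep FT-LCG members.

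**Figure D3:**
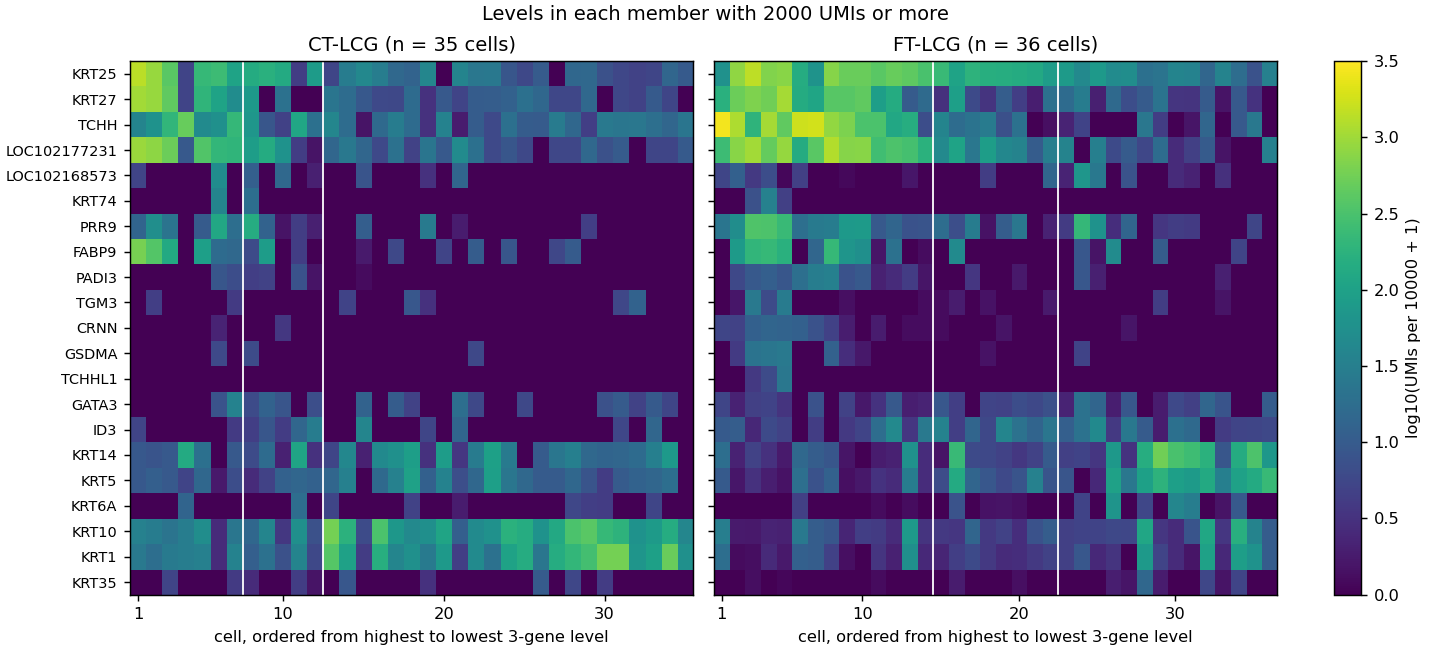
Levels as log10(UMIs per 10000 + 1) of named genes (rows) in each deep member (columns), ordered from the highest to the lowest 3-gene level, for CT-LCG (n = 35) and FT-LCG (n = 36), with white lines at 300 and 100 per 10000. KRT25 and LOC102177231 colour most columns, and KRT74 colours 2 columns in CT-LCG against 3 in FT-LCG. Many, but not all, columns of lower 3-gene level carry KRT10 in CT-LCG and KRT14 in FT-LCG at high levels.

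Deep members were next set against all other kept cells with at least 2000 UMIs, 1804 in CT-LCG against 6476 in FT-LCG, on summed UMIs. A gene was called past a 4-fold ratio in the same direction in both libraries. Of 600 genes with enough UMIs, 13 were higher (2.17%) and 32 lower (5.33%) in members. Of these calls, 8 higher and 2 lower ones were kept as a mean over cells, 9 and 8 without the 5% deepest cells, and 5 and 0 after thinning, where 126 genes were tested. The median of all 600 was -0.11 on the log2 scale in CT-LCG and -0.13 in FT-LCG. Since the members were chosen on expression in the same cells, these are descriptions. The higher genes held KRT25, KRT27 and TCHH, on which the rule chose the cells. They also held KRT74, whose call was lost as a mean over cells, after thinning, without the 5% deepest and with at least 200 UMIs.

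KRT74 (gene 102176789), a type II keratin of the Huxley layer, stood at 7.85 per 10000 (Poisson 95% interval 6.69 to 9.16) in CT-LCG members against 0.0109 in other cells. In FT-LCG it stood at 2.11 (1.81 to 2.44) against 0.00395. It came from few cells, with 2 of 35 members in CT-LCG and 3 of 36 in FT-LCG holding any UMI, and 1 cell held 93.8% of its UMIs in CT-LCG against 61.4% in FT-LCG. All 5 of these cells were above 100 per 10000 of the 3 genes. KRT26, another type I keratin of the sheath, had 0 UMIs in CT-LCG members, where 3 UMIs would be a level of 0.145. In FT-LCG it had 32 in 4 cells.

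A pair of genes without a symbol lay beside the keratin genes and were higher with them. LOC102177231, which lies between KRT74 and KRT5 in the reference table of goat genes, stood at 93.7 per 10000 (89.5 to 97.9) in CT-LCG members against 0.86 in other cells, and at 423 (418 to 427) against 2.03 in FT-LCG. It was the broadest of the higher genes outside the rule, with UMIs in 33 of 35 CT-LCG and 33 of 36 FT-LCG members. Thinned to 1000 UMIs per cell, 71.4% of CT-LCG and 77.8% of FT-LCG deep members held a UMI of it. Endothelial cells thinned alike held one in 26.3% and 14.3%, at unthinned median depths of 3116 and 3495 UMIs. Without thinning the shares were 94.3% and 91.7% in members and 63.6% and 37.1% in endothelial cells. The members' share was thus higher than that background in both libraries. Shallow barcodes, thinned alike, held a UMI of it in 83.5% (80 to 86.6) in CT-LCG and 52.6% (44.9 to 60.2) in FT-LCG. In CT-LCG the share of deep members (53.7 to 85.4) was thus not above that of shallow barcodes.

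LOC102168573, which lies between KRT27 and KRT10 in the same table, stood at 13.5 (11.9 to 15.1) against 0.0175 in CT-LCG and at 3.37 (2.98 to 3.78) against 0.0407 in FT-LCG. In CT-LCG 1 cell held 71.6% of its UMIs, and 8 members held any. Without the deepest member its level in CT-LCG was 4.78. Keratin genes are near-identical in parts, and how reads shared by genes of this cluster were counted was not tested.

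PRR9, a proline-rich gene of the region that also holds trichohyalin, stood at 33 (30.6 to 35.6) per 10000 in CT-LCG members against 0.104 in other cells. In FT-LCG it was at 82.3 (80.4 to 84.3) against 0.192. FABP9, a fatty acid binding protein gene, stood at 19.8 (17.9 to 21.8) against 0.376 in CT-LCG and at 62.6 (60.9 to 64.3) against 0.445 in FT-LCG. UMIs of PRR9 were found in 15 CT-LCG and 30 FT-LCG members and those of FABP9 in 16 and 17. Unthinned, FABP9 was in 45.7% of deep CT-LCG members against 40.9% of endothelial cells, and thinned in 28.6% (14.6 to 46.3) against 13.2% (4.41 to 28.1), so its share there was not above that background beyond counting error. In FT-LCG the thinned shares were 38.9% (23.1 to 56.5) and 5.26% (2.14 to 10.5). The deepest cell of each library held 74.3% of the PRR9 UMIs in CT-LCG against 47% in FT-LCG. Without these cells PRR9 stood at 10.6 and 52.4, still above other cells.

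The other higher genes had smaller ratios. CUX1 stood at 6.06 (5.04 to 7.22) against 0.595 in CT-LCG and 3.52 (3.13 to 3.95) against 0.593 in FT-LCG, with UMIs in 13 and 29 members. In CT-LCG 37.1% of members and 36.4% of endothelial cells held a UMI of CUX1, and after thinning 22.9% (10.4 to 40.1) and 10.5% (2.94 to 24.8), so that share was not above background beyond counting error. In FT-LCG the thinned shares were 36.1% (20.8 to 53.8) and 12% (7.04 to 18.8). Of 5 tested transcription factors, CUX1 was called higher and EHF, an ETS factor of epithelia, lower, with log2 ratios of -2.10 and -2.16. ID3, an inhibitor of helix-loop-helix factors, stood at 11.3 against 1.73 and at 12.9 against 3.09. In CT-LCG 61.1% of the ID3 UMIs came from 1 cell, and 12 members held any. DUSP2, a phosphatase of MAP kinases, had log2 ratios of 3.56 in CT-LCG against 2.26 in FT-LCG, with 76.3% of its CT-LCG UMIs in that same cell. TUBA1A, an alpha-tubulin, had log2 ratios of 2.07 and 3.07, and KRT23, a type I keratin, 2.80 and 3.21. The calls of TUBA1A, KRT23 and DUSP2 were lost as a mean over cells, after thinning and without the 5% deepest cells. That of ID3 was lost as a mean over cells and after thinning, and those of PRR9, LOC102168573 and CUX1 after thinning. With at least 200 UMIs the calls of TUBA1A, KRT23, DUSP2 and CUX1 were lost. Among members at 100 per 10000 or more those of ID3 and DUSP2 were lost. In FT-LCG 1 cell held 61.9% of the TUBA1A UMIs and 73.8% of those of KRT23.

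**Figure D4:**
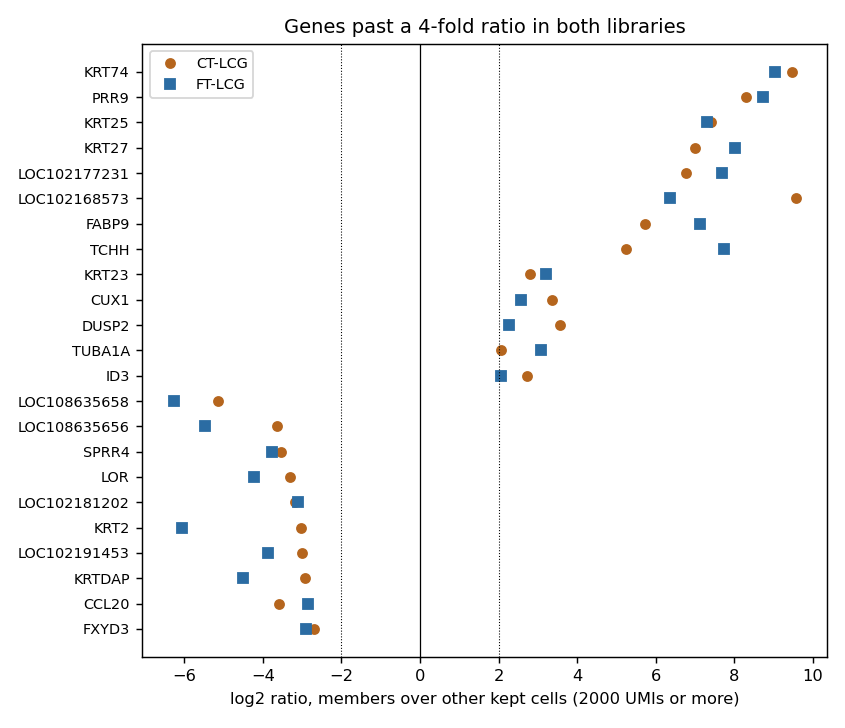
Log2 ratio of summed levels in deep members over the other kept cells with at least 2000 UMIs (x), for all 13 higher genes and the 10 lowest of the 32 lower genes past 4-fold in both libraries (rows), with circles for CT-LCG, squares for FT-LCG and dotted lines at 4-fold. KRT25, KRT27, KRT74 and PRR9 lie at about 7 or above in both libraries, and KRT2 and LOR lie on the lower side in both. The ratios of LOC108635658, with 1 UMI in members of each library, and of KRT2 in FT-LCG, with 2, depend on the pseudo-count of 0.5.

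GATA3 stood at 7.12 (6.02 to 8.37) in CT-LCG members against 1.99 in other cells. In FT-LCG it stood at 3.67 (3.27 to 4.1) against 2.1, so it was not called at 4-fold. It was found in 17 of 35 CT-LCG and 30 of 36 FT-LCG members. Thinned to 1000 UMIs, 17.1% (6.56 to 33.6) of CT-LCG members held a UMI of it against 10.5% (2.94 to 24.8) of endothelial cells, which overlap in counting error. Unthinned, 48.6% of CT-LCG members (median 2415 UMIs) and 13.6% of endothelial cells (median 3116) held one. In FT-LCG the thinned shares were 27.8% (14.2 to 45.2) and 3.76% (1.23 to 8.56). DLX3 and MSX2, homeobox factors of the hair follicle, had too few UMIs for the 4-fold rule. Thinned, their shares of members overlapped those of endothelial cells in CT-LCG, at 14.3% (4.81 to 30.3) against 2.63% (0.0666 to 13.8) for both genes. Unthinned, DLX3 was in 31.4% against 4.55% there and MSX2 in 22.9% against 11.4%. In FT-LCG, thinned, DLX3 was in 16.7% (6.37 to 32.8) against 1.5% (0.183 to 5.33), and MSX2 in 8.33% (1.75 to 22.5) against 0% (0 to 2.74). In summed levels DLX3 stood at 2.03 (1.47 to 2.75) and 1.72 (1.45 to 2.03) in members against 0.424 and 0.261 in other cells. MSX2 stood at 1.7 (1.18 to 2.36) and 1.1 (0.888 to 1.35) against 0.105 and 0.131, with 62.9% of its CT-LCG UMIs in 1 cell. BAMBI, a decoy receptor for BMP signals, stood at 1.79 and 4.97 against 0.143 and 0.375. In FT-LCG 1 cell held 78.1% of the BAMBI UMIs and in CT-LCG 1 cell held 51.4%. The CT-LCG cell was not the deepest member there. Without the deepest members BAMBI stood at 1.81 in CT-LCG against 1.31 in FT-LCG. Thinned, a UMI of it was in 11.4% of CT-LCG members against 7.89% of endothelial cells and in 8.33% against 6.02% in FT-LCG, not above background beyond counting error. The hair shaft factor HOXC13 had 0 UMIs in CT-LCG members and 11 in FT-LCG.

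The envelope and crosslinking list held 20 genes, of which 17 were in the files and 3 had enough UMIs for the 4-fold rule. Of these, TCHH was higher and LOR, the loricrin of the epidermal granular layer, was lower. LOR stood at 0.533 and 0.395 in CT-LCG and FT-LCG members against 5.57 and 7.49 in other cells. PADI3, the deiminase that acts on trichohyalin, had too few UMIs for the rule but stood at 1.94 (1.38 to 2.64) against 0.0144 in CT-LCG and at 3.88 (3.47 to 4.33) against 0.0174 in FT-LCG. It was found in 7 and 18 members, and 1 cell held 77.5% of its UMIs in CT-LCG against 32.7% in FT-LCG. PADI1 was found in 4 and 11 members and PADI4 in 4 and 16, while PADI2 had 0 UMIs in both. Thinned, PADI3 was in 8.57% (1.8 to 23.1) of CT-LCG members and 25% (12.1 to 42.2) of FT-LCG ones. In endothelial cells it was in 0 of 38 (up to 9.25%) and 0 of 133 (up to 2.74%), so after thinning only the FT-LCG share was above background beyond counting error. Unthinned, PADI3 was in 20% of CT-LCG members (median 2415 UMIs) and 0% of endothelial cells there (median 3116). In FT-LCG the unthinned shares were 50% and 1.4%, at medians of 17307 and 3495 UMIs. No such background was computed for PADI1 and PADI4.

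TGM3, the transglutaminase that crosslinks trichohyalin, stood at 0.485 (0.232 to 0.891) in CT-LCG members against 0.929 in other cells. In FT-LCG it stood at 5.9 (5.4 to 6.45) against 0.516, and 1 cell held 78.1% of those UMIs. Without the deepest member TGM3 was at 1.55 in FT-LCG. TGM1 and TGM5 had 35 UMIs and 10 UMIs in FT-LCG and 7 UMIs and 1 UMI in CT-LCG. Summed over the 18 keratin and envelope genes of these lists outside the rule, the level in deep members was 15.7 (14.1 to 17.6) in CT-LCG and 36.2 (34.9 to 37.5) in FT-LCG. In shallow barcodes it was 8.8 (8.14 to 9.5) and 15.7 (14.2 to 17.2). As a mean over cells the deep members stood at 10.6 and 18.3, and after thinning at 10.3 and 17.8. Without the 5% deepest cells, 2 in each library, they stood at 7.51 and 15.2, where the gap to the shallow barcodes was gone.

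The 32 lower genes held some of the epidermis and others such as VIM (vimentin) and B2M (the light chain of MHC class I). Of 10 tested suprabasal genes 4 were lower and 0 higher, with medians of -1.91 in CT-LCG and -4.31 in FT-LCG. KRTDAP, a gene of differentiating keratinocytes, stood at 11.9 and 2.54 in members against 90.3 and 57.7 in other cells. KRT2, a keratin of the upper epidermis, stood at 0.63 in CT-LCG members against 5.36, and had 2 UMIs in FT-LCG members against a level of 1.98. SPRR4, a small proline-rich envelope gene, stood at 0.194 and 0.0838 against 2.53 and 1.22. CCL20, a chemokine, stood at 0.921 and 1.34 against 11.4 and 9.8. FXYD3, a regulator of the sodium pump, stood at 3.39 and 3.95 against 22 and 29.5. Nearly all lower calls were lost as a mean over cells (2 kept of 32) or after thinning (0 kept). The 6 tested desmosome genes and 8 immediate early genes held no call in either direction. That is near the shares over all 600 genes (2.17% higher and 5.33% lower) and is not read as a result about these lists. The immediate early genes had a median log2 ratio of -0.61 in CT-LCG and -2.47 in FT-LCG.

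Deep members were not alike along the 3-gene scale, so they were split, after seeing the data, into bands of 30 to 100, 100 to 300, and 300 or more per 10000. CT-LCG had 23, 5 and 7 cells in these bands and FT-LCG 14, 8 and 14. Median depth differed between bands, at 11912 UMIs in the lowest and 31260 in the highest band of FT-LCG and at 2285 and 2415 in CT-LCG. In the lowest band the genes of other keratinocytes were prominent, and not the same ones in the libraries. KRT10 had a median of 111 per 10000 there in CT-LCG against 4.62 in FT-LCG. KRT14 had a median of 22.7 in CT-LCG against 107 in FT-LCG.

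All 12 deep CT-LCG members with KRT10 at 100 per 10000 or more lay in the lowest band. KRT1, the partner of KRT10, stood at a summed 91.5, 8.78 and 8.84 across the bands of CT-LCG. In FT-LCG KRT14 stood at 127, 21.2 and 4.74 and KRT5, its partner, at 64.7, 18.4 and 2.82. KRT6A, a companion layer and outer root sheath keratin, stood at 16, 0.704 and 0.0569, with 54.1% of its UMIs in 1 cell. At least 100 UMIs of KRT14 were counted in 7 deep FT-LCG members, 5 of them in the lowest band with 154, 652, 376, 440 and 151. In CT-LCG 0 members reached 100. KRT10 in the lowest CT-LCG band had a median of 111 over cells, and the barcodes left out had a summed 179, which is not the same measure. Thinned endothelial cells of CT-LCG held a UMI of KRT10 in 86.8%. KRT14 in the lowest FT-LCG band stood at a summed 127, against 110 in the barcodes left out there. Its cells were not alike, however, and ran from 2.27 to 553 per 10000. The part of free RNA and of doublets in these values was not tested.

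Between the highest and the lowest band of FT-LCG, 83 of 1314 genes (6.32%) were higher and 49 (3.73%) lower at 4-fold. The 3 tested outer root sheath genes were lower. KRT25, KRT27 and TCHH set the bands and were not read. Of the 16 other envelope genes, taken by the direction of their level with no minimum of UMIs, 13 were higher in the highest band, 1 was lower and 2 had 0 UMIs in both. By the same measure 37.8% of the 11177 features with a UMI were higher and 62.2% lower. CRNN (cornulin), IVL (involucrin) and PADI3 stood at 5.76, 9.67 and 5.97 in the highest band against 1 UMI, 0.199 and 0.397 in the lowest, with 55.4%, 69% and 32.7% of their UMIs in 1 cell each. PADI3 was detected in 13 of 14 cells of the highest band. GSDMA, a gasdermin, stood at 10.1 against 1 UMI, with 66.3% of its UMIs in 1 cell. TCHHL1 and RPTN, relatives of trichohyalin in the S100-fused family, stood at 6.67 and 1.97 against 0, with 92.9% and 88.5% of their UMIs in that cell, the deepest member of FT-LCG at 139578 UMIs. Without that cell 12 of the 16 were higher and 2 lower, against 39.7% higher and 60.3% lower of 10970 features by the same measure. Past 4-fold, 34 of 1121 tested genes were then higher and 45 lower.

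LOC102177231 went with the keratins in both libraries, at 15.4, 41.6 and 278 per 10000 across the bands of CT-LCG and at 12.3, 47.8 and 651 in FT-LCG. FABP9 and PRR9 had their highest level in the highest band in both. FABP9 stood at 1.19, 5.31 and 65.4 in CT-LCG and at 7.81, 3.45 and 95.8 in FT-LCG. PRR9 stood at 5.16, 18.8 and 95.1 in CT-LCG and at 14.2, 10.7 and 123 in FT-LCG. In the highest CT-LCG band 507 of the 538 PRR9 UMIs were in 1 cell, and without it the band stood at 19.8. In the middle CT-LCG band 1 cell held 85 PRR9 UMIs and the others 1 to 3 each. The PRR9 levels of both bands thus rested mostly on single cells. The transcription factors GATA3 and CUX1 did not go with the keratins. GATA3 stood at 7.54, 6.33 and 7.07 in CT-LCG and at 5.3, 5.56 and 2.63 in FT-LCG. CUX1 stood at 5.46, 9.8 and 3.89 and at 4.24, 5.95 and 2.6. None of 7 transcription factors tested between the FT-LCG bands passed 4-fold. That is near the shares over all genes (6.32% higher and 3.73% lower) and is not read as a result about them. ID3 stood at 14.4, 22.4 and 9.71 in FT-LCG. In CT-LCG it stood at 16.3 and 13.9 in the lower bands and had 2 UMIs in the highest. However, 1 cell held 143 of the 164 UMIs of the lowest band, which stood at 3.32 without it. In the middle band 1 cell held 54 ID3 UMIs and the others 2 to 6 each.

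**Figure D5:**
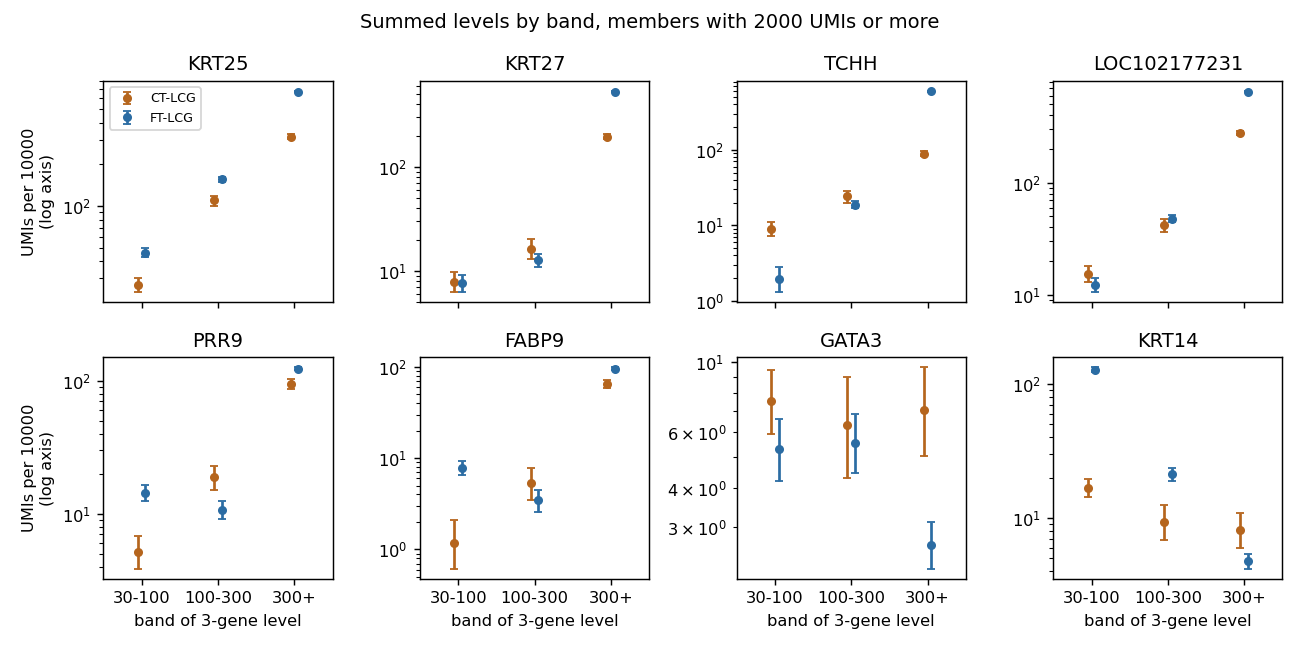
Summed UMIs per 10000 (y, log axis) with Poisson 95% intervals for selected genes in the bands of 30 to 100, 100 to 300, and 300 or more per 10000 of the 3 genes (x), for deep members of CT-LCG (23, 5 and 7 cells) and FT-LCG (14, 8 and 14 cells). LOC102177231 is higher in each higher band (15.4 to 278 and 12.3 to 651), and KRT14 in FT-LCG is lower in each (127 to 4.74).

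The neighbouring layers of the follicle were compared above the same limit of 2000 UMIs, though not at equal depth. Cells by KRT35, called cortex cells here, numbered 21 in CT-LCG against 115 in FT-LCG, with median depths of 3486 and 16661 UMIs against 2415 and 17307 in deep members. Against them 21 of 798 genes were higher (2.63%) and 15 lower (1.88%) in members past 4-fold in both libraries. Of 5 tested hair shaft genes 4 were lower. KRT35, on which both groups were chosen, stood at 0.581 and 0.192 against 126 and 113. MT4, a metallothionein of the hair shaft, stood at 0.436 and 0.407 against 44.3 and 29.6, and SELENBP1, a selenium binding protein, at 0.775 and 0.0719 against 30.6 and 31.3. GATA3 was the 1 of 7 tested transcription factors that was higher in members, at 7.12 and 3.67 against 0.364 and 0.209. DSG1, a desmosomal cadherin, stood at 6.54 and 5.86 against 1.16 and 1.1. FABP5, an epidermal fatty acid binding protein gene, stood at 15.2 and 37.7 against 3.42 and 2.42.

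Cells by KRT6A, an outer root sheath and companion layer keratin, numbered 15 in CT-LCG against 160 in FT-LCG, with median depths of 10726 and 12073 UMIs. Against them 16 of 1152 genes were higher (1.39%) and 44 lower (3.82%) in members. Of the outer root sheath genes KRT6A was lower by the choice of these cells, and the other 4 tested were lower too. KRT5 stood at 8.87 and 16.9 against 101 and 190, and KRT14 at 12.6 and 30 against 112 and 337. SFRP1, a secreted WNT inhibitor, stood at 0.145 and 0.12 against 2.78 and 3.71. SOX9, a factor of the outer root sheath and its stem cells, stood at 0.455 against 4.87 in FT-LCG, and in CT-LCG it had 2 UMIs in members, under the limit of 3, against a level of 4.67. GATA3 and CUX1 were higher in members, with GATA3 at 0.765 and 0.899 and CUX1 at 0.282 and 0.715 in the KRT6A cells. In summed levels GATA3 was thus higher in deep members than in both groups. Thinned to 1000 UMIs, however, a UMI of it was held by 17.1% (6.56 to 33.6) of deep CT-LCG members and 14.3% (3.05 to 36.3) of CT-LCG cortex cells, with overlapping intervals, and unthinned by 48.6% against 19%. In FT-LCG the thinned shares were 27.8% (14.2 to 45.2) and 1.74% (0.211 to 6.14).

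Markers of other cell types were scarce in deep members. The rule itself kept PECAM1, PLVAP, VWF and the dividing-cell genes low. CLDN5 and SELE, endothelial markers it did not use, had 0 UMIs in both libraries. Immune markers summed to 0 UMIs in CT-LCG against 4 in FT-LCG, and melanocyte markers to 1 and 1. Fibroblast markers summed to 8 and 102, of which 67 were DCN UMIs in 1 FT-LCG cell. At least 3 UMIs of endothelial, fibroblast, smooth muscle, immune or melanocyte markers were held by 0 CT-LCG and 4 FT-LCG members. Dividing-cell markers, among them MKI67, which the rule did not use, summed to 5 and 7, with 3 in 1 CT-LCG cell. Spinous epidermal markers, in contrast, stood at 108 per 10000 in CT-LCG against 13.7 in FT-LCG. Basal ones stood at 21.5 and 46.9. Granular ones stood at 45.3 and 71, of which SBSN made up 39 and 57.6.

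CT-LCG and FT-LCG were compared on deep members at a 2-fold ratio of summed levels. Of 2164 genes 279 (12.9%) were higher in CT-LCG and 156 (7.21%) lower, meaning higher in FT-LCG. The median gene lay 0.16 higher on the log2 scale in CT-LCG. With ratios centred on that median the counts were 212 and 199, so the share higher in CT-LCG went from 64.1% to 51.6%. With ribosomal protein genes left out they were 333 and 140, a share of 70.4%. With at least 200 UMIs the balance turned, to 35 higher in CT-LCG against 60 in FT-LCG. The libraries were also unlike in depth and band make-up, with 23 of 35 cells in the lowest band in CT-LCG against 14 of 36 in FT-LCG. Among members at 100 per 10000 or more the counts were 166 and 153, a share of 52% higher in CT-LCG. After thinning to 1000 UMIs per cell they were 15 and 13. The part of depth and band make-up in the differences was not tested.

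The genes of the sheath did not all lie on one side. KRT25, KRT27 and TCHH were higher in FT-LCG, by log2 values of -1.87, -2.47 and -3.45 for CT-LCG over FT-LCG, but the rule used all of them. Among the 16 other envelope genes, by the direction of the level with no minimum of UMIs, 12 were higher in FT-LCG, 3 (LOR, KLK5 and KLK7) in CT-LCG and 1 had 0 UMIs in both, with the same counts without the deepest cell of each library. By that measure 36.4% of the 12680 features with a UMI were higher in FT-LCG and 63.6% in CT-LCG. Several rested on few UMIs in CT-LCG, such as CDSN, corneodesmosin, with 3 UMIs against 319. Of 10 tested transcription factors 3 were higher in CT-LCG (EHF, GRHL1 and BCL11B) and 0 in FT-LCG, beside 12.9% and 7.21% of all genes. The median log2 ratio of these factors was 0.87 in members and 0.44 in the other deep cells. GATA3 and CUX1 did not pass 2-fold, at 0.96 and 0.79. KRT74 was higher in CT-LCG, with a log2 ratio of 1.90, and higher in FT-LCG at -1.52 without those cells, so its direction turned on 1 cell. LOC102168573 went from 2.00 to 0.26 without them, still higher in CT-LCG.

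Suprabasal and immediate early genes were among those higher in CT-LCG. Of 9 tested suprabasal genes 5 were higher in CT-LCG, with a median log2 ratio of 2.23 in members and 0.65 in the other deep cells. S100A7A, an S100 protein of inflamed and keratinizing epithelium, had 545 UMIs in CT-LCG members and 44 in FT-LCG, levels of 26.4 and 0.527. SPINK7, a protease inhibitor, had 238 and 29. Their log2 ratios were 5.63 and 5.03 in members and 2.15 and 2.05 among other deep cells, so both were higher in CT-LCG outside the members too. Of 8 immediate early genes 5 were higher in CT-LCG, with medians of 1.90 in members and 0.06 in other cells. FOS stood at 14.1 and 3.86, JUN at 18.9 and 4.66 and EGR1 at 4.31 and 0.791. The list thus showed no such shift between the other deep cells. Against the other deep cells of the same library its median was lower in both, at -0.61 in CT-LCG members and -2.47 in FT-LCG members. As a list these genes were thus not raised in CT-LCG members over other CT-LCG cells.

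Among genes higher in FT-LCG, SLC40A1, an iron exporter, had 214 UMIs against 1, and 73.8% of them were in 1 cell. S100A3, a calcium-binding protein of the hair cuticle, had 108 UMIs against 0, with 83.3% in 1 cell. TSPAN33, a tetraspanin, had 75 against 0, with 78.7% in 1 cell. PENK, the proenkephalin gene, had 76 against 0. SPP1, osteopontin, had 82 against 0, with 73.2% in 1 cell. LOC102180443 had 1109 against 5, and without the deepest members it stood at 14.3 in FT-LCG and 0.302 in CT-LCG. It was lower in CT-LCG among other cells too, at a log2 ratio of -6.73 against -5.64 in members. Apart from it, most of the leading FT-LCG genes were counted chiefly in single cells.

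Shallow barcodes were last set against deep members. Past 2-fold in both libraries, 133 of 1944 genes (6.84%) were higher in shallow barcodes and 35 (1.8%) lower. KRT25, KRT27 and TCHH were used by the rule and are not read here. KRT74 stood at 0.308 against 7.85 in CT-LCG and 0.144 against 2.11 in FT-LCG, and PRR9 at 4.3 against 33 and 3.21 against 82.3. In CT-LCG 1 deep cell held 93.8% of the KRT74 UMIs and 74.3% of those of PRR9, and without it KRT74 stood at 0.604 in deep members. Of 6 tested envelope genes 2 were higher and 2 lower in shallow barcodes. CUX1 stood at 1.09 against 6.06 and 1.52 against 3.52. Of 9 tested suprabasal genes 6 were higher in shallow barcodes and of 5 hair shaft genes 4. KRT10 stood at 168 against 46.9 in CT-LCG and 135 against 6.67 in FT-LCG. KRT35 stood at 2.96 against 0.581 and 4.48 against 0.192, although the rule limits it in both. CST6, the epidermal protease inhibitor cystatin M, stood at 27.5 against 5.77 and 90.3 against 13. FGFBP1, a carrier of fibroblast growth factors, stood at 2.27 against 0.108 in FT-LCG, and at 0.885 in shallow CT-LCG barcodes against 1 UMI in deep members. Shallow barcodes thus had higher levels of several genes of the epidermis and the hair shaft. The 18 inner root sheath keratin and envelope genes outside the rule, some of which the epidermis also uses, stood higher in deep members as a mean over cells (10.6 and 18.3 against 8.85 and 15.3), and not without the 5% deepest cells of each set (7.51 and 15.2 against 8.94 and 15.2).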

How the data were processed

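The deposited table held raw UMI counts for 17299 barcodes and 27137 features, made by the authors with bcl2fastq and Cell Ranger (3.0.2 in the file header) and filtered with Seurat 3.1.1, per the submitters' processing notes. The notes name human and mouse builds only, and the goat build is not given in the sources used here, so no coordinates are printed. Both samples carry the same labels, so cells were assigned to CT-LCG and FT-LCG by the deposited table of kept cells. Levels are summed UMIs per 10000 with exact Poisson intervals, and shares have exact binomial intervals. Log2 ratios used a pseudo-count of 0.5. Deep members against all other deep cells took genes with at least 50 expected UMIs at the smaller depth. The other comparisons took genes with at least 50 UMIs counted over both sets. Thinning took 1000 UMIs per cell. Python 3.11.15, numpy 2.4.6, scipy 1.17.1, pandas 2.3.3 and matplotlib 3.10.9 were used, and the scripts were tested on simulated data.

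The members and the gene lists were chosen with earlier results of these data known. Named genes were those of the lists with at least 20 UMIs in members, the 15 highest and 10 lowest of members against other cells, the 8 leading genes each way between the libraries and the 6 each way between depths. The genes singled out by their share in 1 cell were chosen after their values were seen, and so were the counts of envelope genes by direction and the values without the deepest cell. Of 181 genes in the lists 24 were not found under their symbols and were not analysed by name. Gene neighbours were read from a RefSeq gene table of assembly ARS1.2. Alternatives changed the limits of the rule, the depth boundary, the scaling, the minimum of UMIs, the ratio and the deepest cells.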

Additional observations from a re-analysis of the deposited data

Results flagged for a closer look

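Among barcodes that the authors left out, 897 in CT-LCG and 32 in FT-LCG met the rule for inner root sheath cells, out of 2659 and 1589. They were flagged because they carry the signal of the 3 genes in barcodes that no comparison between the libraries used.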

How the results depend on the processing

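Of 138 recomputed values for 20 results, 52 stayed within the spread or within 1.5 times the reported count and 86 did not. The cause was not tested, except where fewer genes or cells entered by construction. The count of shallow members in CT-LCG (649) became 64 at a limit of 100 per 10000, 114 with at least 10 UMIs, and 251, 339 and 428 without TCHH, KRT25 and KRT27 in the rule. The count of deep members there (35) became 72, 15 and 12 at limits of 20, 50 and 100, 23 with at least 10 UMIs, 96 and 9 at depth boundaries of 1500 and 3000, and 17, 16 and 23 without each gene. The CT-LCG share (19.9%) became 21.3%, 14.5% and 2.21% at those limits, 26.3% and 3.98% with at least 3 and 10 UMIs, 7.78%, 10.3% and 13.1% without each gene, and 14.7% with 10% of UMIs taken off as free RNA. In FT-LCG the shallow count (229) became 103 and 13 at limits of 50 and 100, 579 and 17 with at least 3 and 10 UMIs, 122, 35 and 94 without each gene, and 115 with free RNA taken off. The deep count there (36) became 22 at a limit of 100, 57 without the limits on other genes, 59 at a boundary of 1500 and 18 without KRT25. The FT-LCG share (2.76%) became 1.36% and 0.364%, 6.4% and 0.52%, 1.6%, 0.552% and 1.32%, and 1.57% under the same changes as its shallow count. The summed level of the 18 genes in deep members became 10.6 and 18.3 in CT-LCG and FT-LCG as a mean over cells, 10.3 and 17.8 after thinning, 7.51 and 15.2 without the 5% deepest cells, and 38.9 in FT-LCG without cells holding genes of other types. Genes higher and lower in deep members than in other cells became 8 and 2 as a mean over cells, 5 and 0 after thinning, 30 and 63 with at least 20 UMIs, 8 and 10 with at least 200, 22 and 91 past 2-fold and 8 and 6 past 8-fold, and 8 were lower without the 5% deepest. Genes higher in CT-LCG and in FT-LCG became 449 and 318 as a mean over cells, 15 and 13 after thinning, 902 and 302 with at least 20 UMIs, 35 and 60 with at least 200 and 53 and 51 past 4-fold, and 166 were higher in CT-LCG among members at 100 per 10000 or more. Genes higher and lower in shallow than in deep members became 54 and 18 as a mean over cells, 323 and 68 with at least 20 UMIs and 34 and 10 with at least 200, and 44 and 210 were higher at boundaries of 1500 and 3000. After thinning, 9 and 5 genes were higher and lower than in KRT35 cells, and 5 and 7 than in KRT6A cells.

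No paired analysis was possible because each cashmere type had 1 library. Deep CT-LCG members held 206392 UMIs against 834899 in FT-LCG, and the 2 deepest cells held 38.1% and 30% of them. In CT-LCG 3 UMIs are a level of 0.145 in deep members, and in FT-LCG 0.0359. Ratios of genes under it, such as KRT2 in FT-LCG, depend on the pseudo-count. The number of members in CT-LCG depended on the limit of the rule. UMIs limit counting error only and do not stand for further goats.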
